A study of Mus musculus with 8 samples.

Results

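A group of 37 genes that cells use to copy their DNA and to divide was followed in a mouse stellate cell line after knockdown of Bnc2. The members were chosen by symbol: 14 genes of DNA replication (the S phase members, Mcm2 to Tyms) and 23 genes of mitosis (the mitotic members, Mki67 to Foxm1). Values were taken from probe sets that the array annotation pairs with exactly 1 of these symbols, and were averaged per symbol. In this way 36 of the 37 members were measured, among 22180 genes in all. Ccnb1 was named by none of the probe sets used, so its expression was not analysed here and 22 mitotic members remained. Rrm2 and Mybl2 rested on 2 probe sets each and every other measured member on 1.

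EMS404 is a mouse line of myofibroblastic hepatic stellate cells, the activated form of the liver cell that lays down scar matrix. The cells received 20 nM of either a non-targeting siRNA (siCTRL, 4 samples) or an siRNA against Bnc2 (siBNC2, 4 samples) by lipofection, and RNA was collected 48 h later and hybridised to 1 mouse gene array per sample. Bnc2 encodes the zinc finger protein basonuclin 2. Both groups were of the same line, received the same transfection reagent and siRNA dose, and carried no other alteration named in the labels. The comparison asks how the transcriptome of 1 line differed after the siRNA against Bnc2. Effects of a lower Bnc2 level and other effects of that siRNA cannot be told apart in it.

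Cells license their replication origins by loading the MCM helicase in G1, with Cdc6 and Cdt1 as loaders, and then fire those origins in S phase while ribonucleotide reductase and thymidylate synthase supply nucleotides. Mitosis is driven by cyclin-dependent kinase 1 with its A and B cyclins and by the Polo and Aurora kinases, while kinesins build the spindle and the checkpoint proteins hold anaphase until chromosomes are attached. Transcription of the replication genes is known to follow E2F factors, and that of the mitotic genes B-Myb (Mybl2), FoxM1 and the MuvB complex, which binds a cell cycle homology region (CHR). Stellate cells begin to proliferate when they turn into myofibroblasts. In bulk RNA of this kind, a lower share of cells in a phase and less RNA per cell in that phase cannot be told apart.

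The target itself was lower in siBNC2. Bnc2 read 8.26, 8.41, 8.37 and 9.03 (log2) in siCTRL 1 to 4 and 7.07, 6.78, 6.72 and 8.18 in siBNC2 1 to 4. Every siBNC2 array lay below every siCTRL array, but siBNC2 4 came close to the lowest control. The difference of means was -1.33 (95% confidence interval -2.03 to -0.63), with an exact two-sided permutation p of 0.0286, the smallest that 4 against 4 samples allow, and without the arrays numbered 4 it was -1.49. With limma the adjusted p over all genes was 1.00. The median level was 6.45 to 6.50 on the 8 arrays, and the correlation of 2 arrays over genes was 0.983 to 0.996. Of 12 stellate and myofibroblast markers 10 lay above a dimness threshold of 5.66 (the 40th percentile of mean level), while Lrat and Hgf lay under it. Hepatocyte, cholangiocyte, macrophage and endothelial markers lay under it in 2 of 5, 2 of 4, 4 of 6 and 3 of 5 cases.

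The arrays numbered 4 stood apart from the other 6 in both groups. Interferon-stimulated genes, which encode antiviral proteins, had their lowest value of the group on siCTRL 4 and on siBNC2 4 in 20 of 21 measured cases. Their median deviation from each gene's mean over the 8 arrays was -3.50 on siCTRL 4 and -2.62 on siBNC2 4, against -0.07 to 1.68 on the other arrays. These arrays were kept, and results that rest on them are also given without them. The part that this difference between arrays played in any result below was not tested.

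As a feature that the choice of members did not use, the 250 bases before the annotated start were searched in the RefSeq promoter table of GRCm38.p6 for 3 motifs on both strands. A window was held for 30 of the 37 members, Ccnb1 among them, and for 27025 genes in all. A gene counted as holding a motif if any of its windows did, and shares of all promoters are shares of these genes. The E2F motif (TTTCCCGC, TTTCGCGC, TTTGCCGC or TTTGGCGC) was found in 4 of 12 S phase members (33.3%), in 1 of 18 mitotic members (5.56%) and in 2.16% of all promoters. The CCAAT box was found in 8 of 12 S phase and 15 of 18 mitotic members (83.3%), against 37.5% of all promoters. A CHR (TTTGAA or TTCGAA) was found in 2 of 12 S phase and 8 of 18 mitotic members (44.4%), against 19.55% of all. CCAAT and CHR stood together in 8 of 18 mitotic members (44.4%), in 2 of 12 S phase members (16.67%) and in 7.0% of all promoters. Aurka and Plk1, for example, held CCAAT but no CHR. Each match is only a match of letters. The 150 bases before the start are shown for Mcm6, as an S phase promoter with E2F motifs, for Cdk1, which held all 3 motifs, and for Top2a, Mki67, Kif11 and Cdc20, as mitotic promoters of genes that are followed array by array below or that varied widely. They are written 5′ to 3′ on the strand of the gene, with E2F, CCAAT and CHR matches on either strand in capitals (CCAAT reads ATTGG, and TTTGAA reads TTCAAA, on the opposite strand), and no base belonged to more than 1 match.
Mcm6 (chr1:128359706-128359855, minus strand): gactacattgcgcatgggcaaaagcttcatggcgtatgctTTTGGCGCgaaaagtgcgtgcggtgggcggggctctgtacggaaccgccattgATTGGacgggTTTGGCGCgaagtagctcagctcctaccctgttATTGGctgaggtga
Cdk1 (chr10:69352913-69353062, minus strand): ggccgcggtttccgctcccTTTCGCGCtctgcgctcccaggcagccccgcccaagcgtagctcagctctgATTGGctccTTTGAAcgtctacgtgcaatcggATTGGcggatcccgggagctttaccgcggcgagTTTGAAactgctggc
Top2a (chr11:99024190-99024339, minus strand): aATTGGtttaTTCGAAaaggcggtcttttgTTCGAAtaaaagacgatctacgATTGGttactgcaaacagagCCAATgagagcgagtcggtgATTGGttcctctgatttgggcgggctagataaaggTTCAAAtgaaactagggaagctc
Mki67 (chr7:135716380-135716529, minus strand): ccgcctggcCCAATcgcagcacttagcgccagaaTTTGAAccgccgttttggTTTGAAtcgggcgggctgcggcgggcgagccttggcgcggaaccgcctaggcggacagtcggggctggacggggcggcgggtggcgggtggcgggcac
Kif11 (chr19:37376232-37376381, plus strand): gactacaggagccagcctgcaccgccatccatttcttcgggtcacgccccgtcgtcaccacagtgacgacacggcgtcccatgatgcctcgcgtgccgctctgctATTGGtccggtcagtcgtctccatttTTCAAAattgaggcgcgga
Cdc20 (chr4:118437344-118437493, minus strand): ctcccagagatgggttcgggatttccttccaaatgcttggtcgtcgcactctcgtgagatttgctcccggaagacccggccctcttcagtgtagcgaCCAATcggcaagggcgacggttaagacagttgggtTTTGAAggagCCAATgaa

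The replication and mitosis genes were not told apart between siBNC2 and siCTRL by the tests used. By limma over all 22180 genes, 0 of 36 members had an adjusted p under 0.05, as did 0% of all genes. At an unadjusted p under 0.05 the count was also 0 of 36, where 3.19% of all genes passed (708 genes). No member separated the 4 siBNC2 from the 4 siCTRL arrays, which 2.16% of all genes did. With shares this small over all genes, 0 of 36 does not set the members apart. The smallest unadjusted p was 0.0795, for Mybl2, and the adjusted p of every member was 1.00. All 36 members were well above the dimness threshold, with mean levels of 9.27 to 16.8 (log2).

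The siBNC2 mean was above the siCTRL mean in 20 of 36 members and below it in 16. Differences ran from -0.23 (Nusap1) to 0.26 (Mybl2) on the log2 scale around a median of 0.01. Over all genes the median difference was 0.0074. The sign of the smallest differences depended on scaling: Rrm1 and Ccna2 turned negative with each array centred on its median, and Cdk1 turned positive after a second quantile normalization. The 95% confidence intervals of all 36 members lay inside -1 to 1, reaching at most -0.73 (Mki67) and 0.74 (Mcm3), and those of 21 members lay inside -0.5 to 0.5. The tighter limit held for 11 of 14 S phase but only 10 of 22 mitotic members. The interval of each of the 36 members held 0, so none of their differences was told apart from 0 with 4 arrays a group.

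**Figure D1:**
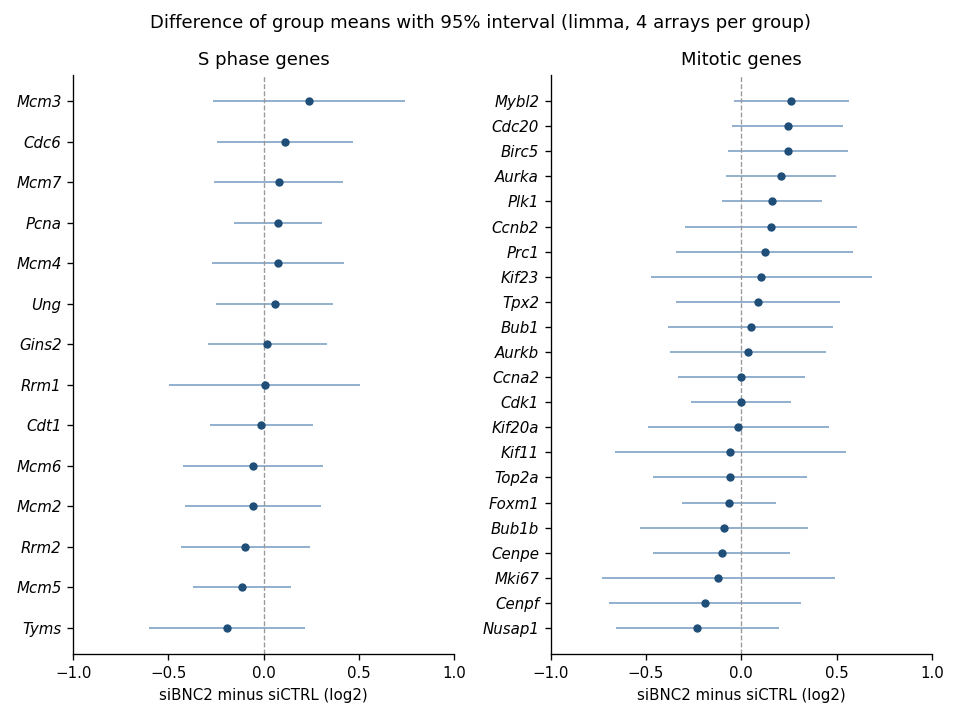
Difference of group means, siBNC2 minus siCTRL (log2, horizontal axis), for each of the 36 measured members, with the 95% confidence interval of the limma fit over 4 arrays a group; S phase and mitotic members are drawn in separate panels. Every interval crosses 0 and lies inside -1 to 1.

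Among the S phase members, the MCM helicase subunits showed no common direction. Mcm3 had the largest difference of the S phase members, with 12.61, 13.13, 13.36 and 13.18 in siCTRL 1 to 4 and 13.10, 13.38, 12.90 and 13.85 in siBNC2 1 to 4. The groups overlapped, and the ends of the range were siCTRL 1 and siBNC2 4. The difference was 0.24 ± 0.225 (SE) with an unadjusted p of 0.315 by limma. Mcm5 read 14.35, 14.42, 14.43 and 14.66 in siCTRL and 14.25, 14.41, 14.32 and 14.43 in siBNC2. Its siCTRL 4 value lay above the other 7 arrays, which overlapped, and the difference was -0.11 ± 0.11. Mcm2, widely used as a marker of cells licensed to replicate, read 13.75, 13.87, 14.22 and 14.03 in siCTRL and 13.80, 14.15, 13.60 and 14.08 in siBNC2. High and low arrays were found in both groups, and the difference was -0.06 ± 0.16. The remaining subunits differed by 0.08 ± 0.16 (Mcm4), -0.06 ± 0.16 (Mcm6, whose promoter is shown above) and 0.08 ± 0.15 (Mcm7).

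The helicase loaders Cdc6 and Cdt1 differed by 0.11 ± 0.16 and -0.01 ± 0.12 (SE), and Gins2, a subunit of the complex that joins the MCM ring in the active helicase, by 0.02 ± 0.14. Pcna, the sliding clamp of the replicative polymerases, varied least of the S phase members. It read 16.73, 16.81, 16.75 and 16.83 in siCTRL and 16.77, 16.92, 16.94 and 16.81 in siBNC2. The 8 arrays spanned 0.20, siBNC2 2 and 3 lay above all controls while the other siBNC2 arrays lay among them, and the difference was 0.08 ± 0.10.

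In nucleotide supply, the thymidylate synthase gene Tyms had the lowest difference of the S phase members. Its values were 11.64, 11.35, 11.92 and 12.15 in siCTRL and 11.55, 11.33, 11.79 and 11.62 in siBNC2. The siCTRL 4 and siCTRL 3 arrays were above all siBNC2 arrays and the other controls were among them. The difference was -0.19 ± 0.18 (SE) with an unadjusted p of 0.319. The ribonucleotide reductase subunits differed by 0.0047 ± 0.22 (Rrm1, the large subunit) and -0.10 ± 0.15 (Rrm2, the small one, at -0.03 with its brighter probe set alone), and Ung, the uracil glycosylase that removes uracil from DNA, by 0.06 ± 0.14. Over the 14 S phase members 8 means were higher and 6 lower, with a median difference of 0.01.

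The kinases and cyclins of mitotic entry gave values on both sides of 0. Plk1, the Polo kinase, read 15.11, 15.04, 14.83 and 15.01 in siCTRL and 15.16, 15.23, 15.26 and 14.98 in siBNC2. Here siBNC2 1 to 3 lay above every control while siBNC2 4 lay among them, and the difference was 0.16 ± 0.12 (SE, unadjusted p 0.204). Aurka, the Aurora kinase of the spindle poles, read 12.30, 12.65, 12.47 and 12.70 in siCTRL and 12.58, 12.69, 12.89 and 12.79 in siBNC2. Its siBNC2 3 and 4 arrays were above all controls, siBNC2 1 and 2 were not, and the difference was 0.21 ± 0.13 (unadjusted p 0.140). Birc5 (survivin), the partner of Aurora B in the chromosomal passenger complex, read 13.50, 13.61, 13.16 and 13.29 in siCTRL and 13.70, 13.62, 13.80 and 13.41 in siBNC2. Again siBNC2 1 to 3 lay above every control siBNC2 4 lay among them, and the difference was 0.24 ± 0.14 (unadjusted p 0.116). Aurkb itself differed by 0.03 ± 0.18, Cdk1 by -0.0021 ± 0.12, Ccnb2 (cyclin B2) by 0.15 ± 0.20 and Ccna2 (cyclin A2) by 0.000895 ± 0.15.

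Cdc20, which activates the anaphase-promoting complex, read 12.63, 12.90, 12.70 and 12.75 in siCTRL and 12.92, 13.27, 12.82 and 12.94 in siBNC2. The siBNC2 1, 2 and 4 arrays were above the highest control and siBNC2 3 was below it. The difference was 0.24 ± 0.13 (SE, unadjusted p 0.0915). The checkpoint kinase Bub1 differed by 0.05 ± 0.19 and its relative Bub1b (BubR1) by -0.09 ± 0.20. The kinetochore proteins Cenpe, a motor, and Cenpf differed by -0.10 ± 0.16 and -0.19 ± 0.23.

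Of the spindle genes, Nusap1, which encodes a microtubule-binding protein, had the lowest difference of all members. It read 12.91, 12.79, 13.00 and 13.54 in siCTRL and 12.81, 12.67, 12.63 and 13.20 in siBNC2. The highest array of each group was the one numbered 4, the groups overlapped, and the difference was -0.23 ± 0.19 (SE, unadjusted p 0.258). The kinesins Kif11, Kif20a and Kif23 differed by -0.06 ± 0.27, -0.02 ± 0.21 and 0.11 ± 0.26. Tpx2, which activates Aurora A on the spindle, differed by 0.09 ± 0.19, and Prc1, which bundles microtubules of the central spindle, by 0.12 ± 0.21.

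Mki67, the gene of the proliferation marker Ki-67, read 14.41, 14.83, 15.00 and 15.49 in siCTRL and 14.63, 14.76, 14.38 and 15.50 in siBNC2. The arrays numbered 4 were the highest of both groups and nearly equal, and the others of both groups overlapped. The difference was -0.12 ± 0.27 (SE) and was -0.35 when siBNC2 4 was left out and 0.07 when siCTRL 4 was. Top2a, the topoisomerase that untangles sister chromatids, read 15.43, 15.64, 16.00 and 15.87 in siCTRL and 15.49, 15.68, 15.43 and 16.09 in siBNC2. Both groups ran over nearly the same range, with a difference of -0.06 ± 0.18.

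Of the transcription factor genes that act on the mitotic programme, Mybl2 had the largest difference of all members as the mean of its 2 probe sets. Mybl2 (B-Myb) read 8.97, 9.30, 9.24 and 9.13 in siCTRL and 9.25, 9.53, 9.64 and 9.27 in siBNC2. The siBNC2 2 and 3 arrays were above all controls and siBNC2 1 and 4 were among them. Its difference of 0.26 ± 0.13 (SE) stayed between 0.19 and 0.32 when single arrays were left out, but was 0.10 when only the brighter of its 2 probe sets was used, below the differences of Cdc20, Birc5, Mcm3, Aurka and Plk1 among others. Foxm1 varied least of the mitotic members, spanning 0.32 over the 8 arrays, with a difference of -0.06 ± 0.11. Over the 22 mitotic members 12 means were higher and 10 lower, with a median difference of 0.02.

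**Figure D2:**
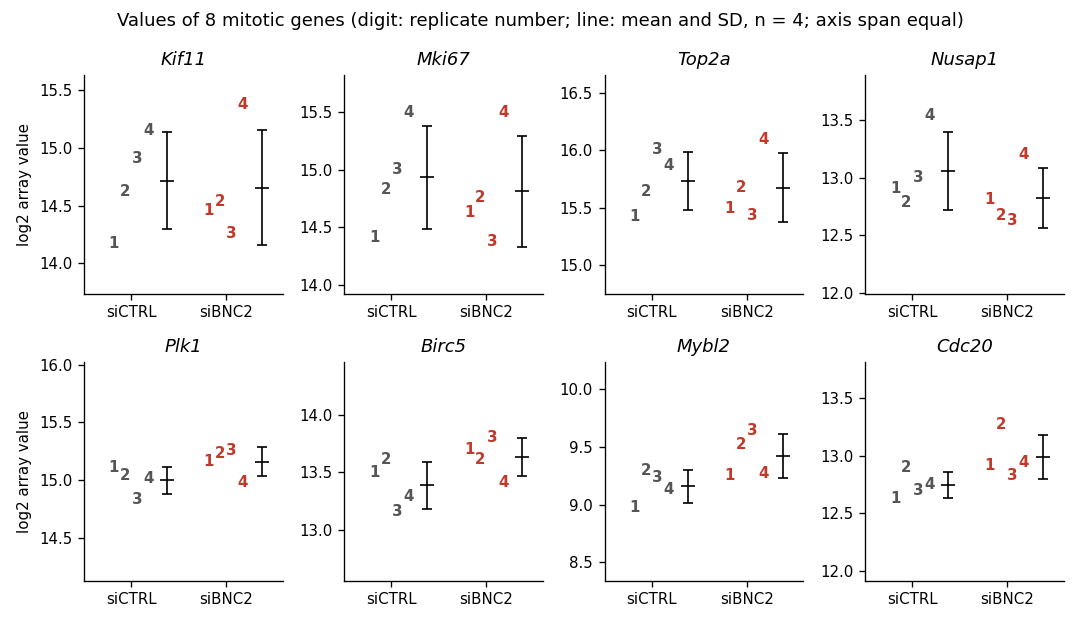
Level (log2, vertical axis) of selected mitotic members on each array, siCTRL and siBNC2 side by side, with each digit 1 array (its replicate number) and each bar a mean over 4 arrays with its SD; all panels span the same number of log2 units. The digits of the groups overlap in every panel.

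The range of a gene over the 8 arrays had a median of 0.80 for mitotic members (0.32 for Foxm1 to 1.26 for Kif23), 0.60 for S phase members (0.20 for Pcna to 1.23 for Mcm3) and 0.74 for all genes above the dimness threshold. The SD within groups had a median of 0.29 for mitotic members, 0.217 for S phase members and 0.255 for those genes.

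The median deviation of the 22 mitotic members from their own means was -0.32, -0.02, 0.03 and 0.20 on siCTRL 1 to 4 and -0.11, -0.01, -0.20 and 0.33 on siBNC2 1 to 4. The array numbered 4 was thus the highest of each group, and the low arrays were siCTRL 1 and, in siBNC2, siBNC2 3 and siBNC2 1. Only 1, 5 and 3 of 22 mitotic members lay above their own mean on these arrays, in that order. By gene, siCTRL 1 was the lowest control in 17 of 22 cases and siBNC2 4 the highest siBNC2 array in 16 of 22. Of the 13308 genes above the dimness threshold the same held for 4355 and 4818. In 12 of 22 mitotic members (54.55%) the arrays numbered 4 were the highest of both groups, namely Mki67, Ccnb2, Ccna2, Bub1, Bub1b, Aurkb, Kif11, Kif20a, Kif23, Cenpe, Nusap1 and Tpx2. The same held for 18.31% of all genes above the dimness threshold and for 13.39% of all genes. Plk1, Birc5 and Mybl2 ran the other way, lying below their own mean on both arrays.

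Kif11, the motor that pushes spindle poles apart, gives an example of the spread. It read 14.17, 14.62, 14.91 and 15.15 in siCTRL and 14.46, 14.54, 14.26 and 15.38 in siBNC2. Its 2 highest values were on the arrays numbered 4, on which the interferon-stimulated genes were lowest. Kif11, Mki67, Top2a and Cdc20 hold CCAAT and CHR matches in the promoters printed above. For Top2a siBNC2 4 was the highest siBNC2 array but siCTRL 4 was not the highest control. For Cdc20 neither array numbered 4 was the highest of its group. A link between these motifs and the order of the arrays was not tested.

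**Figure D3:**
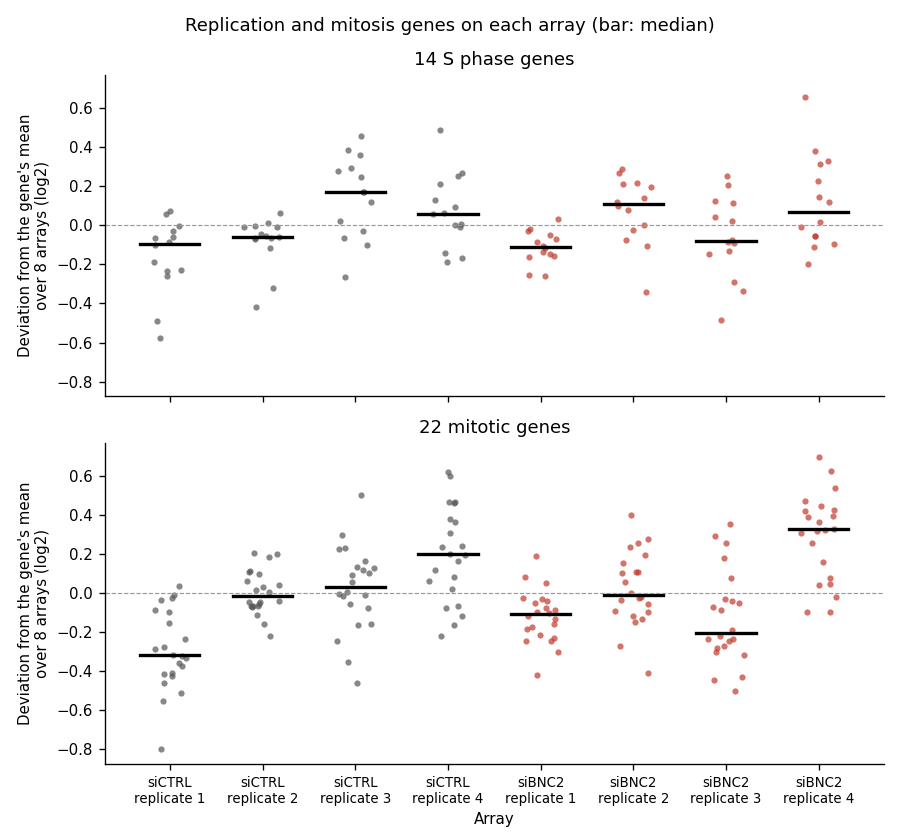
Deviation of each measured member from its own mean over the 8 arrays (log2), by array, with S phase members above and mitotic members below; each point is 1 gene and each bar a median. Mitotic members lie mostly below 0 on siCTRL 1, siBNC2 1 and siBNC2 3 and mostly above 0 on the arrays numbered 4.

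The S phase members shared only some of this order. Their median deviation was -0.10, -0.06, 0.17 and 0.06 on siCTRL 1 to 4 and -0.11, 0.11, -0.08 and 0.07 on siBNC2 1 to 4. By the median the highest arrays were siCTRL 3 and siBNC2 2. By gene, siCTRL 3 was the highest control in 8 of 14 members and siCTRL 1 the lowest in 8 of 14, as in the mitotic members, while siBNC2 4 was the highest siBNC2 array in 6 of 14 and siBNC2 2 in 4 of 14. Of the 13308 genes above the dimness threshold the same held for 3726, 4355, 4818 and 2718, in that order. Only Mcm5 of the 14 was highest on the arrays numbered 4 in both groups, while Rrm2 lay below its mean on both. A test of the difference between the S phase and the mitotic members was not made.

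Since single arrays weighed this much, the median difference of the mitotic members moved from 0.02 to -0.09 without siCTRL 1, to -0.09 without siBNC2 4, to 0.10 without siCTRL 4 and to 0.12 without siBNC2 3. Without both arrays numbered 4 it was -0.03. For the S phase members the median stayed between -0.02 and 0.05 when single arrays were left out, and was -0.01 without both arrays numbered 4. Under each of these settings 0 members passed an unadjusted p of 0.05 by limma.

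Other genes of the same pathways, taken from lists and not from how they moved, gave 0 calls too. Over all genes 3.19% passed an unadjusted p of 0.05 by limma. Among 16 further origin and helicase genes, 19 replication fork enzymes, 9 genes of nucleotide supply and chromatin assembly, 16 E2F and pocket protein genes, 10 G1 cyclins and kinases, 7 CDK inhibitors, 16 kinetochore and checkpoint genes and 27 spindle, condensin and exit genes, 0 had an unadjusted p under 0.05 by limma. The lists' median differences lay between -0.09 (E2F and pocket protein genes, 3 of 16 means higher) and 0.09 (nucleotide supply and chromatin assembly, 6 of 9 higher). The groups did not overlap in 2.16% of all genes and, in these lists, only in Pola2, the second subunit of DNA polymerase alpha. Pola2 read 13.40, 13.29, 13.32 and 13.50 in siCTRL and 13.59, 13.53, 13.57 and 13.74 in siBNC2. The 4 siBNC2 arrays were all above the controls, closely so in siBNC2 2, and the difference was 0.23 ± 0.11 (SE, unadjusted p 0.0650, adjusted p 1.00).

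Ccnd2, a D-type cyclin of G1, had the smallest p of these lists, with a lower mean in siBNC2. It read 15.02, 15.19, 15.68 and 14.54 in siCTRL and 14.79, 14.92, 14.39 and 14.16 in siBNC2. The lowest array of each group was the one numbered 4, the groups overlapped, and the difference was -0.54 ± 0.25 (SE, unadjusted p 0.0549). Its relative Ccnd3 differed by -0.27 ± 0.16. The CDK inhibitor genes Cdkn1a (p21) and Cdkn1b (p27) differed by -0.49 ± 0.54 and -0.13 ± 0.21, with Cdkn1a at 11.10 on siCTRL 4 and 10.25 on siBNC2 4 against 11.76 to 12.98 elsewhere.

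The genes of smallest p in the replication lists, other than Pola2, were Gins3 (0.25 ± 0.23, SE) and Mcm10 (0.12 ± 0.12) of the origin genes, Pold2 (0.21 ± 0.21) of the fork enzymes, and Asf1b (0.18 ± 0.14) and Dck (0.29 ± 0.22) of nucleotide supply and chromatin assembly. Those of the remaining lists were E2f4 (0.23 ± 0.13) and E2f2 (-0.27 ± 0.16) of the E2F genes, Ska3 (0.18 ± 0.16) and Incenp (0.14 ± 0.14) of the kinetochore and checkpoint genes, and Cks2 (0.50 ± 0.30) and Fzr1 (0.17 ± 0.13) of the spindle and exit genes. In each of these genes the groups overlapped.

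High values on the arrays numbered 4 and low values on siCTRL 1 were also seen in the mitotic lists that hold none of the members. There the lowest siBNC2 array by the median was siBNC2 1. By gene, siBNC2 3 was the lowest siBNC2 array in 12 of 27 spindle, condensin and exit genes and siBNC2 1 in 10. The arrays numbered 4 were the highest of both groups in 8 of 16 kinetochore and checkpoint genes and in 14 of 27 spindle, condensin and exit genes, beside 18.31% of genes above the dimness threshold. Median deviations on siCTRL 4 and siBNC2 4 were 0.29 and 0.27 in the first list and 0.23 and 0.25 in the second. The pattern was not confined to mitotic lists: the arrays numbered 4 were the highest of both groups in 4 of 9 genes of nucleotide supply and chromatin assembly (44.44%), 3 of 7 CDK inhibitors (42.86%), 7 of 19 replication fork enzymes (36.84%), 5 of 16 further origin genes (31.25%) and 5 of 16 E2F and pocket protein genes (31.25%). In fork enzymes and in nucleotide supply the median deviation was also highest on these arrays, at 0.08 and 0.13 and at 0.16 and 0.23. G1 cyclins and kinases were split. In 3 of 10 (30.0%) the arrays numbered 4 were the highest of both groups. The other 7 of 10 lay below their own mean on both arrays, beside 27.68% of genes above the dimness threshold. These lists share arrays, so the agreement between them is a description of the 8 libraries.

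**Figure D4:**
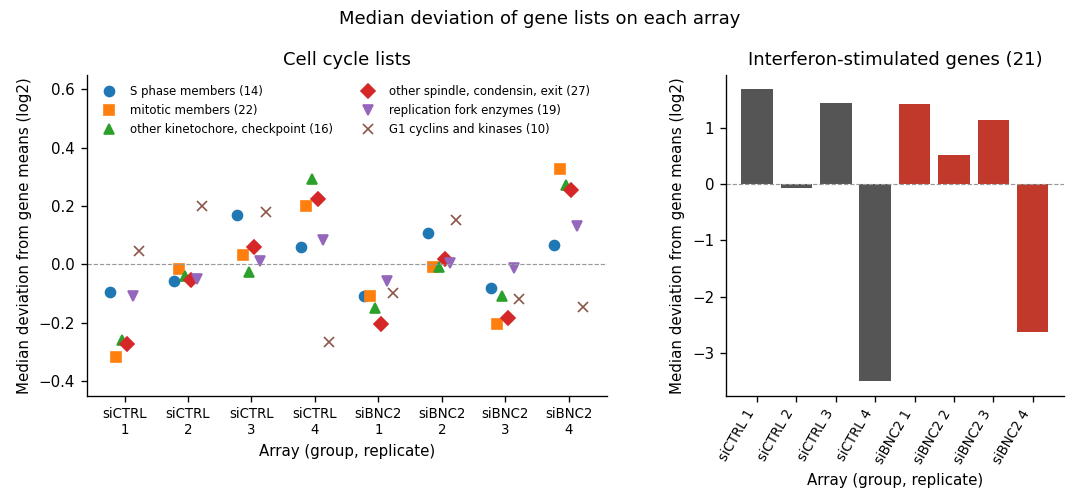
Median deviation from gene means (log2, vertical axis) of 6 cell cycle lists on each array (left, numbers of genes in the key) and of 21 interferon-stimulated genes (right, on a wider axis). The mitotic lists and the fork enzymes are highest on the arrays numbered 4, where the interferon-stimulated genes are lowest.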

How the data were processed

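Biotin-labelled RNA of 8 samples was hybridised to mouse gene arrays. To make the values, the authors ran Affymetrix Power Tools from the GIANT tools (GC correction, intensity scaling, and RMA over core genes), and deposited log2 values per probe set; the log base follows from RMA and is not written in the value table. Quantile normalization removes a shift shared by most genes. The deposited table held 41345 probe sets, and 0 value columns were left unused. The annotation named 1 gene for 23521 probe sets, several for 1820 and none for 16004. Where a symbol had several such probe sets their mean was used, giving 22180 genes, and the other probe sets were left out.

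Samples were grouped by the labels. Group was the single term of a linear model fitted to every gene (limma 3.58.1, lmFit then eBayes, R 4.3.3). Tests were two-sided, and p-values were adjusted by Benjamini-Hochberg over the whole table. The procedure was tested on simulated data with independent noise for each gene and array. Shifts that many genes of an array share, as on the arrays numbered 4, were not simulated. Standard errors and 95% confidence intervals come from that fit. The study describes its cell line arrays as independent replicates, so p-values measure the spread between these, and the number of arrays limits precision. The members and the lists (cell cycle, interferon-stimulated and cell type marker genes) were chosen with earlier results of these data known, and no test was run over a list. All members were named; the 4 S phase and 6 mitotic members of smallest p, with Pcna, Mcm2, Mki67 and Top2a, were given array by array, Kif11 was added after its values were seen, and of each other list the 2 genes of smallest p were named. Pola2, Ccnd2 and Cdkn1a, also named by this rule, were given in more detail after their values were seen. Alternatives were quantile normalization again, median centring, a filter at the 40th percentile, keeping the brightest probe set of a gene, a replicate block, a trended robust prior, array weights, leaving out both arrays numbered 4, and leaving out each array in turn. Promoter sequences are from RefSeq, GRCm38.p6.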

Additional observations from a re-analysis of the deposited data

Results flagged for a closer look

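Values of single arrays were examined in 162 groups of 4 arrays, and in 9 of them the highest or lowest array stood apart: its gap to the nearest array took a larger part of the group's range than Dixon's 95% critical value. Chance alone gives such a gap in about 1 of 20 groups. Among the members the share of the range taken by the gap was 0.9463 for Prc1, 0.9416 for Bub1b and 0.8663 for Ccna2, each in siCTRL with siCTRL 1 low, and 0.8326 for Mcm6 in siCTRL with siCTRL 3 high. Prc1 read 13.80 on siCTRL 1 and 14.43 to 14.47 on the other controls, and Bub1b 11.95 against 12.48 to 12.51. Among the other genes it was 0.8662 for Dck in siCTRL (siCTRL 1 low), 0.852 for Cdkn1b in siCTRL (siCTRL 4 high), 0.8486 for E2f4 in siBNC2 (siBNC2 1 high) and 0.8539 for Ifit3 in siBNC2 (siBNC2 4 low). The median deviation of the G1 cyclins and kinases gave 0.8404 in siBNC2, with siBNC2 2 high.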

How the results depend on the processing

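Under all 16 alternatives 0 genes passed an adjusted p of 0.05 and 0 members an unadjusted p of 0.05 by limma. The number of genes at an unadjusted p under 0.05, 708 of 22180, was 312 with the filter at the 40th percentile, which leaves 13308 genes, 1207 with the replicate block, and 589 to 1099 when single arrays were left out (lowest without siBNC2 2, highest without siBNC2 4). Same-numbered arrays correlated at 0.39, 0.42, -0.0010 and 0.67 in their deviations. The siBNC2 1, 2 and 4 arrays each correlated best with the siCTRL array of their own number. Since siBNC2 3 correlated best with siCTRL 1 (0.40), the numbers were not taken as a pairing. The study's methods say that groups were handled together in each round of replicates, but do not tie a round to an array number. The main fit, with its standard errors and intervals, took no account of rounds. The replicate block changed no call of a member. The Bnc2 difference stayed between -1.66 and -1.16 when single arrays were left out. Differences near 0 changed sign in 21 of 36 members when some array was left out, and kept it in 15. The ranges were -0.139 to 0.0456 for Mcm2, -0.121 to 0.0875 for Mcm6, -0.0346 to 0.140 for Mcm7, -0.159 to 0.167 for Rrm1, -0.182 to 0.0168 for Rrm2, -0.00917 to 0.186 for Cdc6, -0.103 to 0.0381 for Cdt1, -0.0661 to 0.0922 for Gins2, -0.0106 to 0.157 for Ung, -0.348 to 0.0659 for Mki67, -0.200 to 0.0299 for Top2a, -0.104 to 0.0644 for Ccna2, -0.0677 to 0.0505 for Cdk1, -0.0824 to 0.184 for Bub1, -0.228 to 0.0337 for Bub1b, -0.108 to 0.118 for Aurkb, -0.298 to 0.0889 for Kif11, -0.197 to 0.131 for Kif20a, -0.144 to 0.277 for Kif23, -0.0529 to 0.204 for Tpx2 and -0.0403 to 0.237 for Prc1, and among other genes -0.869 to 0.00873 for Cdkn1a, -0.220 to 0.0797 for Cdkn1b, -0.342 to 0.132 for Ifit3 and -0.654 to 1.181 for Rtp4. Without both arrays numbered 4 the differences were -0.024 for Mcm4, -0.0028 for Mcm7, -0.078 for Rrm1, 0.0038 for Cdt1, -0.065 for Ccna2, -0.025 for Aurkb and -0.030 for Tyrobp. Median centring gave -0.0075 for Rrm1 and -0.011 for Ccna2, a second quantile normalization 0.0060 for Cdk1, and array weights -0.019 for Rrm1, 0.0053 for Cdt1, -0.043 for Ccna2 and -0.010 for Aurkb. The cause was not tested.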

Other observations

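Of the marker lists, 1 of 12 stellate and myofibroblast genes passed an unadjusted p of 0.05 by limma, beside 3.19% of all genes. Col3a1, a fibrillar collagen gene, read 11.90, 11.95, 12.82 and 12.84 in siCTRL and 10.23, 10.53, 11.31 and 12.17 in siBNC2, a difference of -1.32 ± 0.41 (SE, unadjusted p 0.00911, adjusted p 1.00) in which siBNC2 4 lay among the controls. Des (desmin) differed by 0.37 ± 0.18. Sox9 (0.53 ± 0.23, unadjusted p 0.0419) of the cholangiocyte and Cyp3a11 (0.43 ± 0.19, unadjusted p 0.0469) of the hepatocyte list were the other marker genes at this p, each with an adjusted p of 1.00. Epcam differed by 0.22 ± 0.17. Ttr (0.34 ± 0.17), Csf1r (0.15 ± 0.13), Tyrobp (0.12 ± 0.14), Emcn (0.23 ± 0.15) and Stab2 (0.11 ± 0.13) lay under the dimness threshold. These genes were named for their small p, and not all markers of their lists were higher in siBNC2. The siBNC2 mean was higher in 2 of 5 hepatocyte and 2 of 4 cholangiocyte markers. It was higher in 3 of 6 macrophage and leukocyte and 4 of 5 endothelial markers. Of the interferon-stimulated genes, Ifit3 differed by -0.18 ± 0.32 and Rtp4 by 0.33 ± 1.04.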
